A study of Mus musculus with 2 samples.

Results

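Metallothioneins and zinc transporters are the genes through which a cell stores zinc and moves it across its membranes, and 10 of them were followed here through the cell types of the mouse prostate. The 10 genes were taken by name, by a rule that sets no threshold on a measured value, out of 32285 genes listed for both libraries. They were the metallothioneins Mt1 and Mt2, the importers Slc39a1, Slc39a7, Slc39a8 and Slc39a14, and the exporters Slc30a1, Slc30a2, Slc30a4 and Slc30a7, and UMIs of all 10 were found. Single-cell RNA sequencing had been done on dissociated prostate of wild-type male mice of strain C57BL6, with 1 library of ventral lobes and 1 of proximal prostate together with tissue around the urethra, called here the proximal library. The age of the mice and how many were pooled are not given in the sources used here. Single cells were captured on the 10x Genomics system with kit version 2 for the ventral and version 3 for the proximal library, and the effects of region and of kit cannot be told apart. With 1 library per group there is no replicate check, no test was made between the libraries or the cell types, and all intervals are exact 95% intervals for counting error only.

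Zinc enters the cytosol through proteins of the ZIP family, encoded by Slc39a genes, and leaves it, to the outside or into vesicles and the Golgi, through proteins of the ZnT family, encoded by Slc30a genes. Metallothioneins are small cysteine-rich proteins that bind zinc and other metals in the cytosol. Their genes are switched on by the zinc-sensing factor Mtf1, which binds metal response elements in DNA, and also respond to glucocorticoids and stress. The prostate is known for the high zinc content of its secretory epithelium and fluid, most of all in humans.

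Mt2 lies at chr8:94172664-94173568 and Mt1 at chr8:94179082-94180327 on the plus strand (build GRCm38, annotation GENCODE M21), 5513 bases apart with 0 genes between them. The 250 bases before the RefSeq start of both genes (build GRCm38.p6) are shown because the levels of Mt1 and Mt2 ran in a similar order over the cell types, with those before Slc39a8, a zinc importer whose levels ran the other way in several of them. Capitals mark the core of the metal response element, searched on both strands as TGCACNC or TGCGCNC.
Mt1, chr8:94178839-94179088, plus strand: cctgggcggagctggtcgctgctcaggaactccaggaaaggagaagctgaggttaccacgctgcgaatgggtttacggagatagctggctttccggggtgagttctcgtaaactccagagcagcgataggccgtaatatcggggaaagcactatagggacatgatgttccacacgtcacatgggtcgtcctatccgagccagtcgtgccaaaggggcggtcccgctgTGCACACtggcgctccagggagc
Mt2, chr8:94172368-94172617, plus strand: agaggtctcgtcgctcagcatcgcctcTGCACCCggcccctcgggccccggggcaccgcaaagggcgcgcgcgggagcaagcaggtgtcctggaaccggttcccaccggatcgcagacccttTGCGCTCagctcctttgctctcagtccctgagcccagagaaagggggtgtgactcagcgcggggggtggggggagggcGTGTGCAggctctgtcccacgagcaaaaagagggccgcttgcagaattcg
Slc39a8, chr3:135825029-135825278, plus strand: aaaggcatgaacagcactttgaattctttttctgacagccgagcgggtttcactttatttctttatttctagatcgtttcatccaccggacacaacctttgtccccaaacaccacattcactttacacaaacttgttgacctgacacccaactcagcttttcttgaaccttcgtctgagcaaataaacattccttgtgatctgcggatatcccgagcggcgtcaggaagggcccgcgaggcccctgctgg
The Mt2 sequence held 3 matches, the Mt1 sequence 1 match at positions -23 to -17 from the start, and the Slc39a8 sequence 0. Of 32851 RefSeq promoters of the same length, 21.4% held at least 1 match, 5.17% at least 2 and 1.26% at least 3. Among the other members, Slc30a2 and Slc30a4 had 2 matches each, Slc30a1 had 1, a second start of Slc39a8 had 1, and Slc39a1, Slc39a7 and Slc30a7 had 0, while Slc39a14 was not among the 9 of 10 members matched in the RefSeq table. The Slc30a2 window (chr4:134343216-134343465) lies inside the GENCODE M21 gene, which starts at 134343181. The window of the second Slc39a8 start (chr3:135825407-135825656) also lies inside its gene, which starts at 135825279. The matches in these windows thus lie after the GENCODE starts. GENCODE M21 gives Mt1 3 transcript starts (94179082, 94179211 and 94179241). The Mt1 window shown ends at 94179088, so the bases just before the later starts were not searched. The Mt2 window ends at 94172617, before the GENCODE start of Mt2 at 94172664, so the bases just before that start were not searched either. A match is only a run of letters, and its absence says only that these letters are not in this window.

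Cells were clustered within each library without the 10 members, and clusters were named after marker lists. The files held 2221 ventral and 4344 proximal barcodes with 49356586 and 97817603 counted RNA molecules (unique molecular identifiers, UMIs), and no barcode was in both libraries (0 shared). The ventral library gave 1547 ventral-like secretory, 82 proximal luminal-like and 141 basal-like cells. The proximal library gave 175 ventral-like secretory, 371 anterior-like secretory, 1068 proximal luminal-like, 910 basal-like, 516 fibroblast-like, 79 macrophage-like and 61 endothelial-like cells. All markers of each of these classes were found in its cells. Clusters that could not be named are called by their leading genes or by a low share of mitochondrial UMIs. They were an Msmb-led cluster of secretory cells in each library (96 and 161 cells), which had under 3 markers of any list in at least 25% of its cells and above the other clusters, a haemoglobin-led cluster of 305 proximal cells with the proximal luminal markers at 9527 CPM in sum against 8976 CPM in the proximal luminal-like cells, and a low-mitochondria cluster of 67 ventral cells. Levels are given as CPM, the share of a gene in the summed UMIs of a class. Anterior-like cells also carried dorsolateral markers (19092 CPM in sum, none at 0), and ventral basal-like cells carried the 6 fibroblast markers at 5306 CPM in sum, none at 0, against 4338 CPM for the 6 basal markers. Endothelial-like cells carried the 6 proximal luminal markers at 2479 CPM in sum, none at 0, against 2940 CPM for the 5 endothelial markers. The part of these other markers in the results below was not tested.

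Among classes of the proximal library with at least 50 cells, Mt1 levels were highest in anterior-like secretory and lowest in proximal luminal-like cells. The 27 T or NK-like cells of that library, a smaller class, held 106.9 CPM (67.8 to 160.5). Anterior-like secretory cells held 9897 CPM (9843 to 9951), fibroblast-like cells 2771 (2727 to 2815) and the Msmb-led cluster 2511 (2482 to 2541). Ventral-like secretory cells followed with 1674 CPM (1649 to 1699) and basal-like cells with 1406 (1385 to 1427), or 1855 (1826 to 1886) without a cluster of them led by Grp, which placed them above ventral-like secretory cells. Macrophage-like cells held 558.8 CPM (513.0 to 607.5), endothelial-like cells 376.3 (335.1 to 421.0), the haemoglobin-led cluster 203.6 (194.9 to 212.7) and proximal luminal-like cells 176.2 (171.4 to 181.1). Among the 61 endothelial-like cells, 1 cell held 40.1% of the Mt1 UMIs, and the mean per-cell level was 265.5 CPM. No neighbours in this order had overlapping intervals, and luminal cells stood at both ends of it. Mt1 was 56.2-fold (54.6 to 57.8) higher in anterior-like than in proximal luminal-like cells. The ratio over proximal luminal-like cells was 15.7-fold (15.2 to 16.2) for fibroblast-like cells and 14.2-fold (13.8 to 14.7) for the Msmb-led cluster. It was 9.50-fold (9.21 to 9.80) for ventral-like secretory cells and 7.98-fold (7.73 to 8.23) for basal-like cells.

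Mt2 had nearly the same order in the proximal library at lower counts. Anterior-like cells held 2045 CPM (2021 to 2070), fibroblast-like cells 901.6 (876.6 to 927.2), the Msmb-led cluster 747.0 (730.9 to 763.3), basal-like cells 735.6 (720.5 to 751.0) and ventral-like secretory cells 427.7 (415.0 to 440.6). Endothelial-like cells held 118.8 CPM (96.2 to 145.1) and macrophage-like cells 68.1 (52.8 to 86.4). Proximal luminal-like cells held 41.34 CPM (39.03 to 43.74) and the haemoglobin-led cluster 43.30 (39.32 to 47.57). Without their Grp-led cluster, basal-like cells held 1084 CPM (1061 to 1107), above fibroblast-like cells. With it, the Msmb-led cluster and basal-like cells overlapped, as did the haemoglobin-led cluster and proximal luminal-like cells. Over proximal luminal-like cells, Mt2 was 49.5-fold (46.7 to 52.5) higher in anterior-like, 21.8-fold (20.5 to 23.3) in fibroblast-like, 17.8-fold (16.7 to 18.9) in basal-like and 10.3-fold (9.70 to 11.0) in ventral-like secretory cells. Free RNA from broken cells can add UMIs to every class, and subtracting 5% of each class's UMIs in the proportions of the whole library moved the anterior-like over proximal luminal-like log2 ratio from 5.81 to 7.32 for Mt1 and from 5.63 to 7.40 for Mt2. For the other 4 classes compared, it moved the log2 ratios of both genes to between 4.39 and 6.19.

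The ventral library also had its highest metallothionein levels in secretory cells. Mt1 stood at 5553 CPM (5461 to 5646) in the Msmb-led cluster, 4359 (4210 to 4513) in the low-mitochondria cluster, 3949 (3930 to 3968) in ventral-like secretory cells, 1548 (1459 to 1641) in basal-like cells and 1257 (1192 to 1323) in proximal luminal-like cells. The matching Mt2 levels were 3358 CPM (3286 to 3430), 2625 (2509 to 2745), 2428 (2413 to 2442), 1363 (1280 to 1451) and 673.4 (626.6 to 722.7), in the same order of classes and with no overlap. Ventral-like secretory over proximal luminal-like cells, Mt1 was 3.14-fold (2.98 to 3.31) and Mt2 3.60-fold (3.36 to 3.88) higher. In 24 of the 82 proximal luminal-like cells, Sbp and Spink1, secretory products of the ventral lobe, made up over 5% of the UMIs. Without those 24 cells, the proximal luminal-like level was 427.5 CPM (378.5 to 481.1) for Mt1 and 104.2 (80.7 to 132.3) for Mt2, and the folds were 9.24 and 23.3. A stricter cell filter (at least 1000 genes, at most 5% mitochondrial UMIs) moved the log2 ratios from 1.65 to 3.84 for Mt1 and from 1.85 to 5.3 for Mt2. The 25 T or NK-like cells of the ventral library moved in the same way: Mt1 was 3199 CPM with all cells and 75.1 CPM without the 14 cells that passed this limit.

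**Figure D1:**
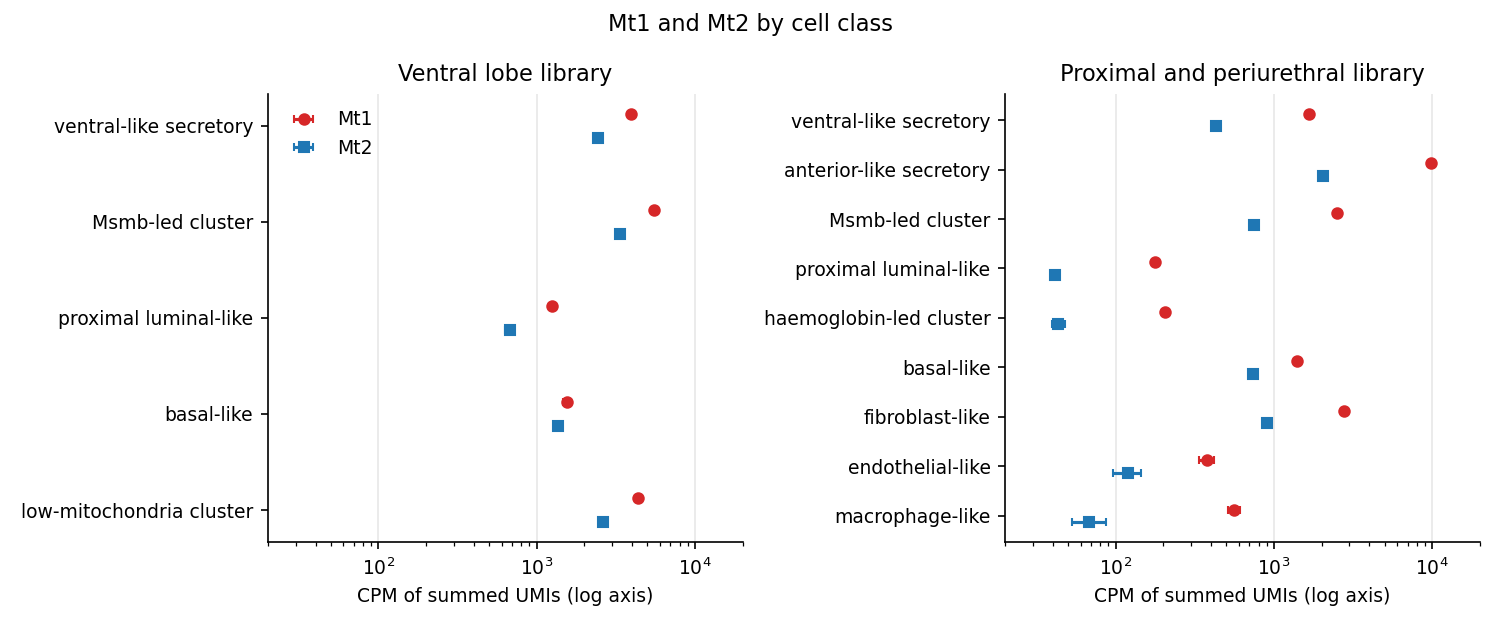
Mt1 (circles) and Mt2 (squares) in CPM of summed UMIs on a log axis for each class with at least 50 cells in the ventral (left) and proximal (right) library, with exact 95% counting intervals, most of them narrower than the symbols. In the proximal library both genes are lowest in proximal luminal-like cells (176.2 and 41.34 CPM) and highest in anterior-like secretory cells (9897 and 2045 CPM).

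Sbp and Spink1 took 47.7% of all UMIs of ventral-like secretory cells in the ventral library and 51.8% of them in the proximal one, which lowers the CPM of every other gene in them. Scaling without the 24 genes that held over 1% of any class raised all log2 ratios of ventral-like secretory cells over proximal luminal-like cells by 0.753 (ventral library) and 1.10 (proximal library), and over ventral basal-like cells by 0.963, while it moved those of the other classes over proximal luminal-like cells by under 0.1. On that scale Mt1 was 5.30-fold (5.03 to 5.58) higher in ventral-like secretory than in proximal luminal-like cells (ventral library) and 4.97-fold (4.69 to 5.28) higher than in basal-like cells, against 2.55-fold (2.41 to 2.71) in CPM. For Mt2 over basal-like cells the values were 3.47-fold (3.26 to 3.70) and 1.78-fold (1.67 to 1.90). The scale also changed the order of classes. Ventral-like secretory cells then stood above the Msmb-led cluster for Mt1 in each library (8458 against 6719 in the ventral and 3950 against 2798 in the proximal one, scaled like CPM), and above fibroblast-like cells (3160). For Mt2 they stood above the Msmb-led cluster (1009 against 832.2) and basal-like cells (815.5) of the proximal library. They stood below the basal-like cells (1206) once a basal-like cluster led by Grp, with low levels of Mt1 (579.0 CPM) and Mt2 (94.6 CPM), was left out. Anterior-like cells (11360 for Mt1) remained highest and proximal luminal-like cells (193.5) lowest of the 6 proximal classes compared.

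Stress and glucocorticoid genes, to which metallothioneins also respond, were read beside them. In the proximal library, the 10 stress and early response genes (Fos, Jun, Hspa1a and others) summed to 15876 CPM in anterior-like, 14361 in fibroblast-like and 13547 in Msmb-led cells. Basal-like cells had 11030, proximal luminal-like 10849 and ventral-like secretory cells 5042. The haemoglobin-led cluster, with Mt1 at 203.6 CPM, had a stress sum of 15967 CPM. Endothelial-like cells, with Mt1 at 376.3 CPM, had 12695, and macrophage-like cells, with Mt1 at 558.8 CPM, had 3170. In the ventral library the sum was 12822 CPM in basal-like, 10974 in proximal luminal-like, 4108 in Msmb-led and 3498 in ventral-like secretory cells, and the last 2 classes were the higher ones in Mt1 and Mt2. Of the 10 genes, Jun and Ier2 were at least 2-fold higher in anterior-like than in proximal luminal-like cells, where 19.5% of all genes were, and 0 were lower. In ventral-like secretory cells, 8 were at least 2-fold lower than in ventral proximal luminal-like cells, where 41.7% of all genes were. Scaled without the 24 genes, 4 were lower (Fos, Fosb, Egr1 and Hspa1b), against 13.2% of all genes. The 6 glucocorticoid response genes (Fkbp5, Tsc22d3 and others) summed to 1016 CPM in basal-like, 934.4 in fibroblast-like and 927.7 in proximal luminal-like cells of the proximal library. The haemoglobin-led cluster had 892.2, anterior-like cells 666.2, Msmb-led cells 611.8 and ventral-like secretory cells 402.0. In the ventral library, proximal luminal-like cells had 602.5, basal-like 490.8, Msmb-led 462.2 and ventral-like secretory cells 325.1. Single genes of the list went both ways. Over proximal luminal-like cells, 4 of the 6 were at least 2-fold higher in the Msmb-led cluster (Fkbp5, Tsc22d3, Per1 and Zbtb16), against 16.6% of all genes, and Sgk1 was lower, against 26.0%. In fibroblast-like cells 3 were higher (Tsc22d3, Per1 and Klf9), against 24.8%, and 0 lower, against 16.3%. In anterior-like cells 2 were higher (Per1 and Zbtb16), against 19.5%, and Fkbp5 was lower, against 24.6%. In ventral-like secretory cells of the proximal library Tsc22d3 was higher, against 6.62%, and Sgk1 lower, against 43.9%. Scaled without the 24 genes, 3 were higher there (Tsc22d3, Per1 and Zbtb16), against 26.3%, and Sgk1 was lower, against 17.3%. The part of these responses in the metallothionein levels was not tested. Mtf1 itself stood at 26.9 CPM (24.1 to 29.8) in anterior-like, 24.3 (22.5 to 26.2) in proximal luminal-like, 18.7 (16.4 to 21.3) in basal-like and 11.3 (9.34 to 13.6) in ventral-like secretory cells of the proximal library.

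Counted by a fixed rule (at least 2-fold apart and at least 50 UMIs in the 2 classes together), the members were called as follows, each count beside the share of all genes that met the same rule. In anterior-like over proximal luminal-like cells 5 of 10 members were higher (Mt1, Mt2, Slc39a7, Slc39a14 and Slc30a2), against 19.5% of all genes, and 2 were lower (Slc30a1 and Slc30a4), against 24.6%. In the Msmb-led cluster of the proximal library 6 members were higher, the same 5 and Slc30a7, against 16.6% of all genes, and Slc39a8 was lower, against 26.0%. Fibroblast-like over proximal luminal-like cells had 5 members higher (Mt1, Mt2, Slc39a1, Slc39a14 and Slc30a2), against 24.8%, and Slc39a8 lower, against 16.3%. Basal-like cells of the proximal library had 3 of the 9 members counted higher (Mt1, Mt2 and Slc39a14), against 11.7%, and Slc39a8 lower, against 12.4%. The median log2 ratio of the members counted was 1.59 in anterior-like cells, 1.52 in the Msmb-led cluster, 1.07 in fibroblast-like cells and -0.0452 in basal-like cells, where that of all genes counted was -0.00382, -0.143, 0.164 and -0.0332.

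For ventral-like secretory cells the counts depended on the scale. Set over ventral proximal luminal-like cells, 3 of 9 members counted were higher (Mt1, Mt2 and Slc39a14), against 2.62% of all genes, and 3 lower (Slc39a1, Slc39a8 and Slc30a1), against 41.7%. Over those of the proximal library 3 were higher (the same 3), against 6.62%, and 2 lower (Slc39a8 and Slc30a1), against 43.9%. Of these, the proximal Slc39a14 ratio (log2 1.06) was under 2-fold in 5 of 13 alternative settings (lowest 0.83). The ventral Slc30a1 ratio (-1.02) was under 2-fold in 8 of them. Over ventral basal-like cells 3 were higher (Mt1, Slc30a1 and Slc30a7), against 9.79%, and 0 lower, against 37.8%. Scaled without the 24 genes, the shares of all genes higher and lower were 9.09% and 13.2%, 26.3% and 17.3%, and 26.2% and 12.7% in these 3 comparisons. Over proximal luminal-like cells, 3 members were then higher in the ventral library (Mt1, Mt2 and Slc39a14). In the proximal library 5 were (Mt1, Mt2, Slc39a7, Slc39a14 and Slc30a7). Slc39a8 then was the only member lower over proximal luminal-like cells in either library. Over ventral basal-like cells 8 members were higher and 0 lower. The ventral Slc39a14 value rests on 2 UMIs in proximal luminal-like cells (3.38-fold, 0.925 to 28.0) and the Slc30a1 value on 1 UMI in basal-like cells (4.39-fold, 0.781 to 174).

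**Figure D2:**
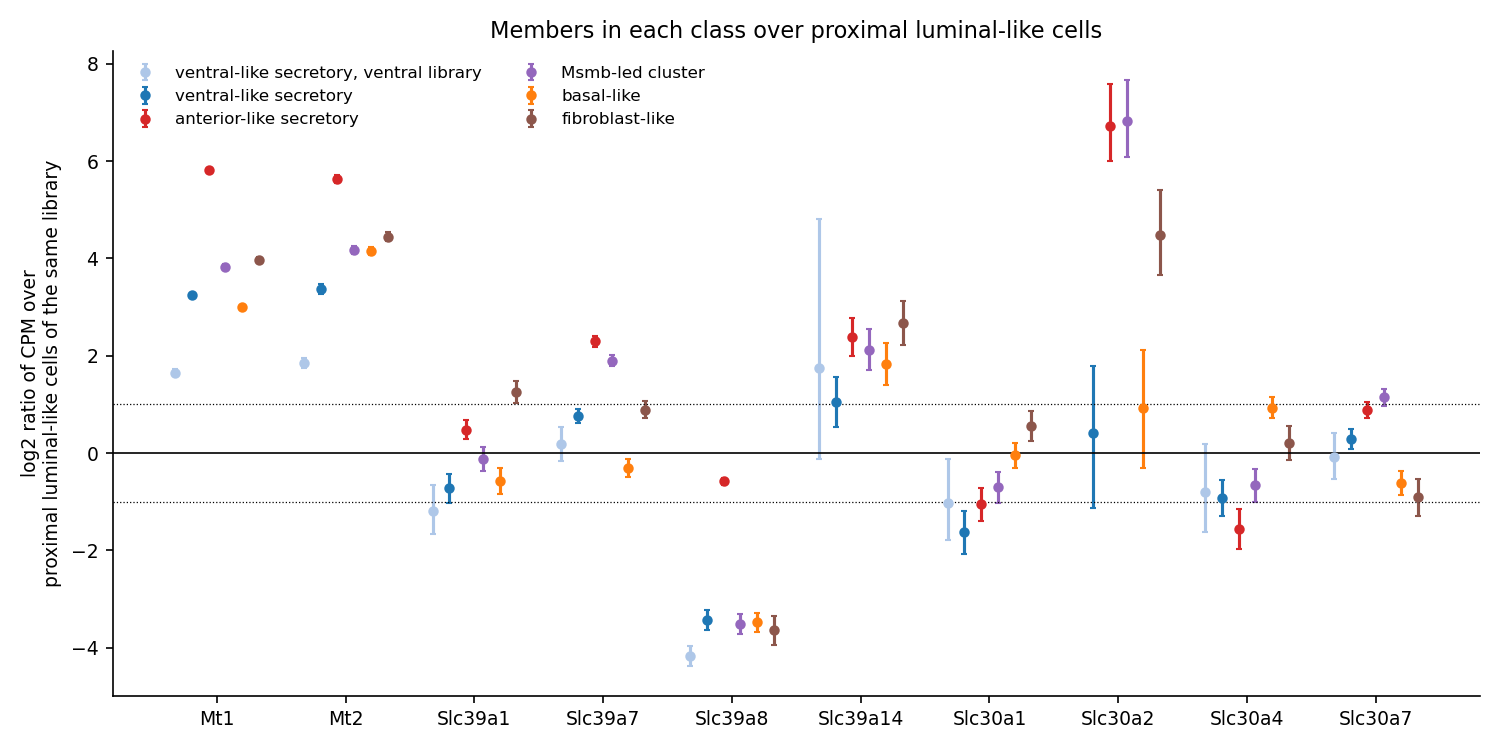
Log2 ratio of CPM of each member in each class over proximal luminal-like cells of the same library (proximal library unless named), with exact 95% counting intervals and dotted lines at 2-fold. Mt1 and Mt2 lie above 0 in every class drawn and Slc39a8 below 0, while Slc30a2 reaches 6.73 in anterior-like cells and 6.82 in the Msmb-led cluster.

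Mt1 and Mt2 also differed in their proportion to each other. Ventrally, 1.63 Mt1 UMIs (1.61 to 1.64) were counted per Mt2 UMI in ventral-like secretory cells, 1.65 (1.61 to 1.70) in the Msmb-led cluster, 1.87 (1.71 to 2.04) in proximal luminal-like and 1.14 (1.04 to 1.24) in basal-like cells. Without the cells with over 5% Sbp and Spink1, the proportion was 4.10 (3.13 to 5.44) in the 58 proximal luminal-like cells left and 1.11 (1.01 to 1.21) in basal-like cells. In the proximal library the proportion was 1.91 (1.86 to 1.96) in basal-like, 3.07 (2.98 to 3.17) in fibroblast-like, 3.36 (3.28 to 3.45) in Msmb-led, 3.91 (3.79 to 4.05) in ventral-like secretory, 4.26 (4.00 to 4.54) in proximal luminal-like, 4.84 (4.78 to 4.90) in anterior-like and 8.21 (6.36 to 10.7) in macrophage-like cells. Basal-like cells had the lowest proportion in each library, and ventral-like secretory, Msmb-led and basal-like cells had a higher one in the proximal library. For proximal luminal-like cells the intervals of the 2 libraries overlapped once those ventral cells were left out. Being a ratio within the same cells, it does not depend on the scaling to CPM, while the part of the kit version was not tested.

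From cell to cell, Mt1 varied widely within a class and its classes overlapped. The median anterior-like cell held 8728 CPM of Mt1, with 5th and 95th percentiles of 844.5 and 22779. The median ventral-like secretory cell held 2874 CPM (543.0 to 10160) in the ventral library, against 1252 CPM (119.2 to 4701) in the proximal one. The median proximal luminal-like cell of the proximal library held 103.0 CPM (0 to 587.4), so that its 95th percentile lay below the 5th percentile of anterior-like cells. Basal-like cells spread from 0 to 6113 CPM around a median of 828.1. Median depth differed between these classes, at 33212 UMIs per anterior-like, 18966 per proximal luminal-like and 12013 per basal-like cell. After every cell was thinned to 1000 UMIs, Mt1 was detected in 95.4% of anterior-like and 14.4% of proximal luminal-like cells, where 99.5% and 81.3% had an Mt1 UMI before thinning. Across cells, Mt1 and Mt2 went together in secretory cells (Spearman 0.89 over 1547 ventral-like cells of the ventral library and 0.88 over 371 anterior-like cells) and less so at the low levels of proximal luminal-like cells (0.16 over 1068 cells), as a description in which the 2 genes share each cell's depth.

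**Figure D3:**
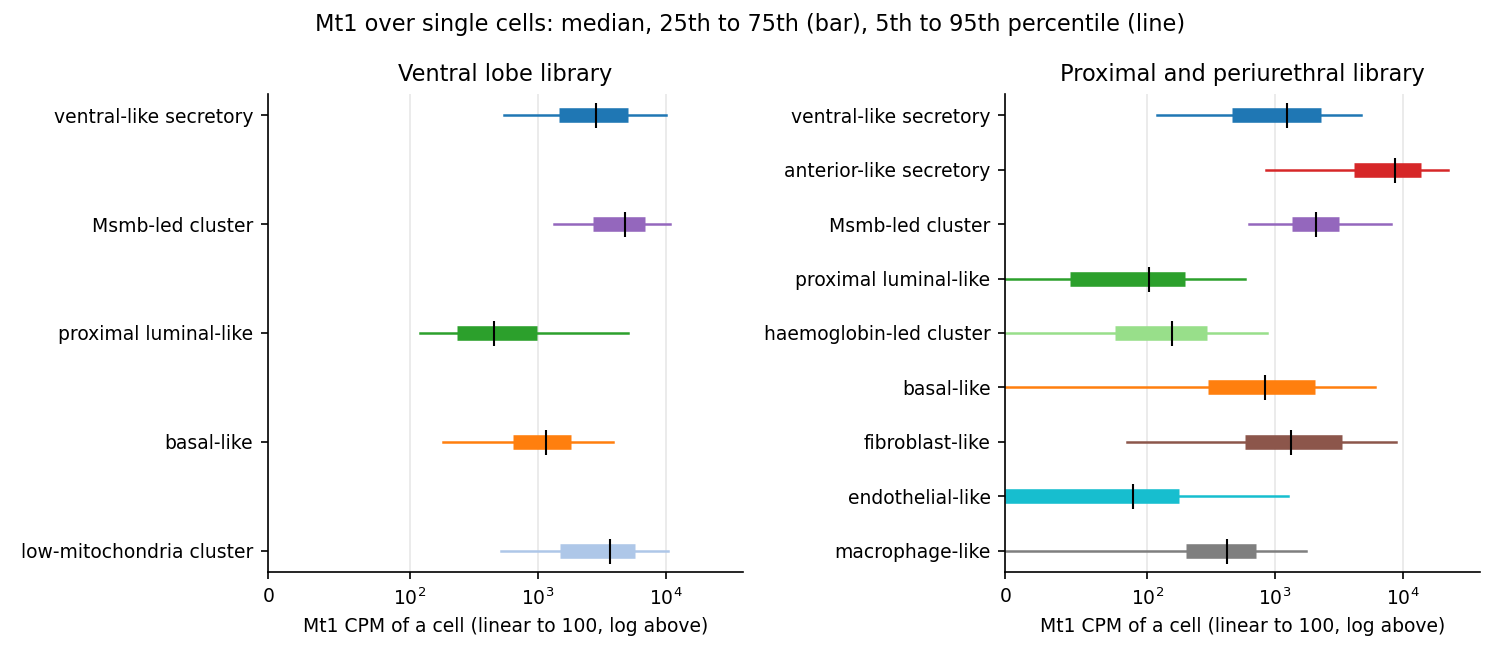
Mt1 CPM of single cells by class and library, on an axis that is linear up to 100 and logarithmic above, with the median (tick), the 25th to 75th percentile (bar) and the 5th to 95th percentile (line). The median is 8728 CPM in anterior-like and 103.0 CPM in proximal luminal-like cells of the proximal library, and basal-like cells spread from 0 to 6113 CPM.

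Clusters of 1 class also differed in Mt1. The 2 anterior-like clusters held 9539 (led by Ren1) and 11044 CPM (led by Pate14) of Mt1, and the 7 ventral-like secretory clusters of the ventral library 3339 to 6578 CPM. Among basal-like clusters, the one led by Krt14 held 1929 CPM of Mt1 and 1059 of Mt2, the one led by Trp63 held 1529 and 1195, and the one led by Grp, with Ivl and Aqp3 next among its leading genes, held 579.0 (556.5 to 602.2) and 94.6 (85.6 to 104.2). The Grp-led cluster thus lay between the other basal-like clusters and the proximal luminal-like clusters, which ran from 108.1 to 230.5 CPM of Mt1. Fibroblast-like clusters held 2199 to 3164 CPM of Mt1.

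Slc39a8 encodes ZIP8, an importer of zinc, manganese and iron at the plasma membrane. Among classes of the proximal library with at least 50 cells, it was highest in the 2 lowest in Mt1. Proximal luminal-like cells held 218.6 CPM (213.3 to 224.1), or 245.2 (217.3 to 275.7) in the ventral library, and the haemoglobin-led cluster 278.2 (268.0 to 288.8). Anterior-like cells held 146.5 CPM (140.0 to 153.3) and endothelial-like cells 53.2 (38.5 to 71.7). In the 61 endothelial-like cells, 1 cell held 39.5% of the Slc39a8 UMIs and the mean per-cell level was 32.1 CPM. All other classes of the proximal library with at least 50 cells lay low and overlapped their neighbours: ventral-like secretory cells at 20.4 CPM, basal-like at 19.6, the Msmb-led cluster at 19.2, fibroblast-like at 17.5 and macrophage-like cells at 10.2. The 27 T or NK-like cells held 65.1 CPM (35.6 to 109.2) from 14 UMIs. Ventral-like secretory cells of the ventral library held 13.6 CPM (12.5 to 14.7), basal-like cells 6.89 (2.24 to 16.1) and the Msmb-led cluster 5.997 (3.36 to 9.89).

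Against proximal luminal-like cells of its own library, Slc39a8 in the proximal library was 10.7-fold lower in ventral-like secretory, 11.1-fold lower in basal-like, 12.5-fold lower in fibroblast-like and 11.4-fold lower in Msmb-led cells, but 1.49-fold (1.42 to 1.57) lower in anterior-like cells. Some of these log2 ratios moved with the cells kept. With the cells of highest doublet score removed, that of the Msmb-led cluster went from -3.51 to -4.28 and that of fibroblast-like cells from -3.64 to -4.29, and 2 of the 161 Msmb-led cells held 26.1% of its Slc39a8 UMIs. The Msmb-led value was -2.83 with each cell named by its own markers. With the stricter cell filter (1000 genes, 5% mitochondrial UMIs), the basal-like value went from -3.48 to -4.31 and the ventral-like secretory one from -3.42 to -4.19, against -2.32 on the scale without the 24 genes. In the ventral library it was 18.1-fold (15.6 to 20.9) lower in ventral-like secretory cells, and 10.7-fold on the scale without the 24 most abundant genes. The ventral proximal luminal-like level was 384.0 CPM (337.6 to 435.0) without the 24 cells with Sbp and Spink1. Within classes, it ran from 163.2 to 280.4 CPM over the proximal luminal-like clusters. The lowest of these were the Sbsn-led (163.2 CPM) and Clca1-led (168.5 CPM) clusters, which had Krt6a and Sprr1a (Sbsn-led) and Upk1a and Upk3a (Clca1-led) among their leading genes, and the periurethral list as their second-ranked markers. Slc39a8 was 144.6 and 152.7 CPM in the anterior-like clusters, and 31.4 CPM in the Grp-led basal cluster against 13.9 and 10.4 CPM in the other 2. After thinning to 1000 UMIs, Slc39a8 was detected in 20.7% of proximal luminal-like, 13.3% of anterior-like, 1.32% of basal-like and 1.28% of macrophage-like cells. The last share would be a level of free RNA only if macrophage-like cells lack Slc39a8, which was not tested. It rests on 79 cells with 10 Slc39a8 UMIs before thinning. Anterior-like cells thus held the highest Mt1 together with a Slc39a8 level within 1.49-fold of proximal luminal-like cells.

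**Figure D4:**
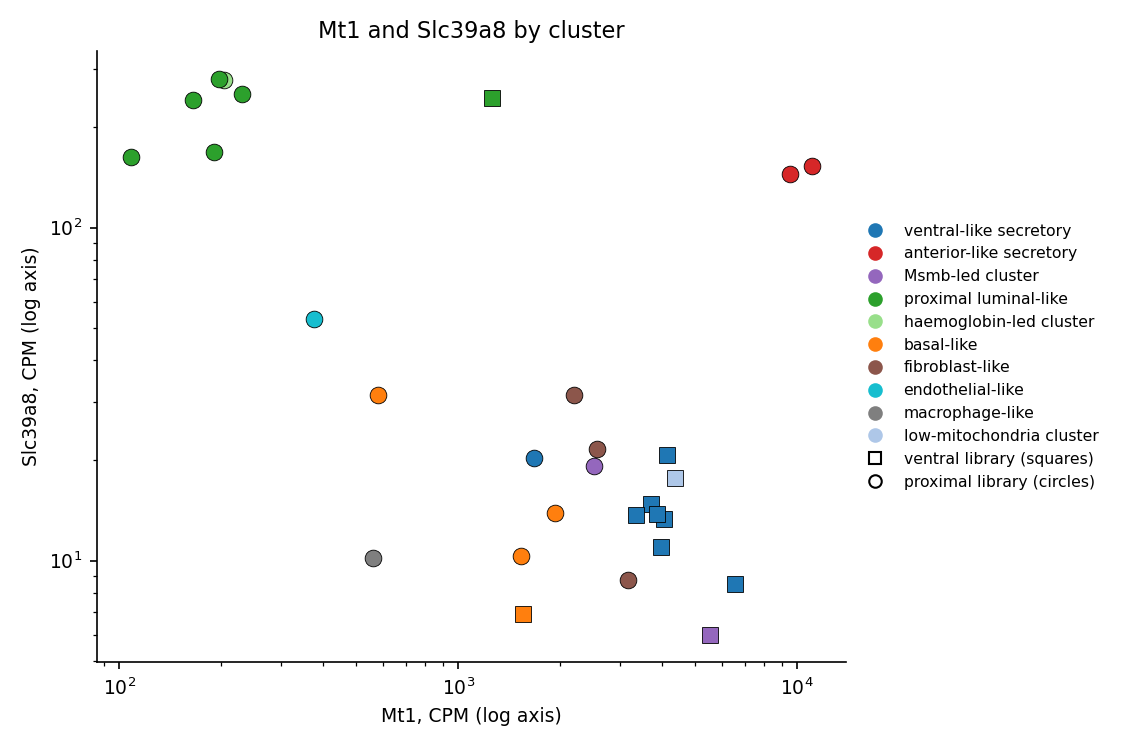
Mt1 against Slc39a8 in CPM, both on log axes, for clusters of at least 48 cells, coloured by class, with squares for the ventral and circles for the proximal library. Proximal luminal-like clusters of the proximal library lie at the upper left (Mt1 108.1 to 230.5 CPM), ventral-like secretory clusters at the lower right, and the 2 anterior-like clusters at the upper right (Mt1 9539 and 11044, Slc39a8 144.6 and 152.7 CPM).

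Slc39a7, Slc39a14 and Slc39a1 had other orders of classes than Slc39a8. Slc39a7 encodes ZIP7, which releases zinc from the endoplasmic reticulum, and was highest in anterior-like cells (171.6 CPM, 164.6 to 178.9) and the Msmb-led cluster (130.4, 123.8 to 137.4). Fibroblast-like cells held 64.8 CPM (58.2 to 71.9), ventral-like secretory cells 59.1 (54.5 to 64.1), proximal luminal-like cells 34.9 (32.8 to 37.1) and basal-like cells 28.2 (25.3 to 31.4). Anterior-like over proximal luminal-like cells were 4.92-fold (4.56 to 5.30) apart. Its ventral levels ran from 53.8 CPM in basal-like to 95.9 CPM in Msmb-led cells, each class overlapping the next. In GENCODE M21, 69.8% of the 91-base windows of its transcripts are shared with the overlapping model Gm20427, which is not a row of the deposited files.

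Slc39a14 encodes ZIP14, an importer of zinc and iron induced in inflammation. It was low everywhere, with 24.4 CPM (15.6 to 36.3) in macrophage-like, 17.1 (13.8 to 21.0) in fibroblast-like, 14.0 (12.1 to 16.2) in anterior-like, 11.7 (9.80 to 14.0) in Msmb-led and 9.57 (7.92 to 11.5) in proximally sampled basal-like cells. Proximal luminal-like cells held 2.69 CPM (2.13 to 3.36), below all of these, so that anterior-like cells were 5.21-fold (3.97 to 6.88) and fibroblast-like cells 6.36-fold (4.66 to 8.71) higher. Slc39a1 encodes ZIP1, a widely expressed importer at the plasma membrane. Its highest levels were 44.5 CPM (39.1 to 50.5) in fibroblast-like, 43.3 (30.2 to 60.3) in endothelial-like and 41.6 (29.9 to 56.5) in macrophage-like cells, which overlapped, while epithelial classes of the proximal library ran from 11.3 to 26.2 CPM. In GENCODE M21, 16% of its transcript windows are shared with the pseudogene Slc39a1-ps, which is not a row of the files.

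**Figure D5:**
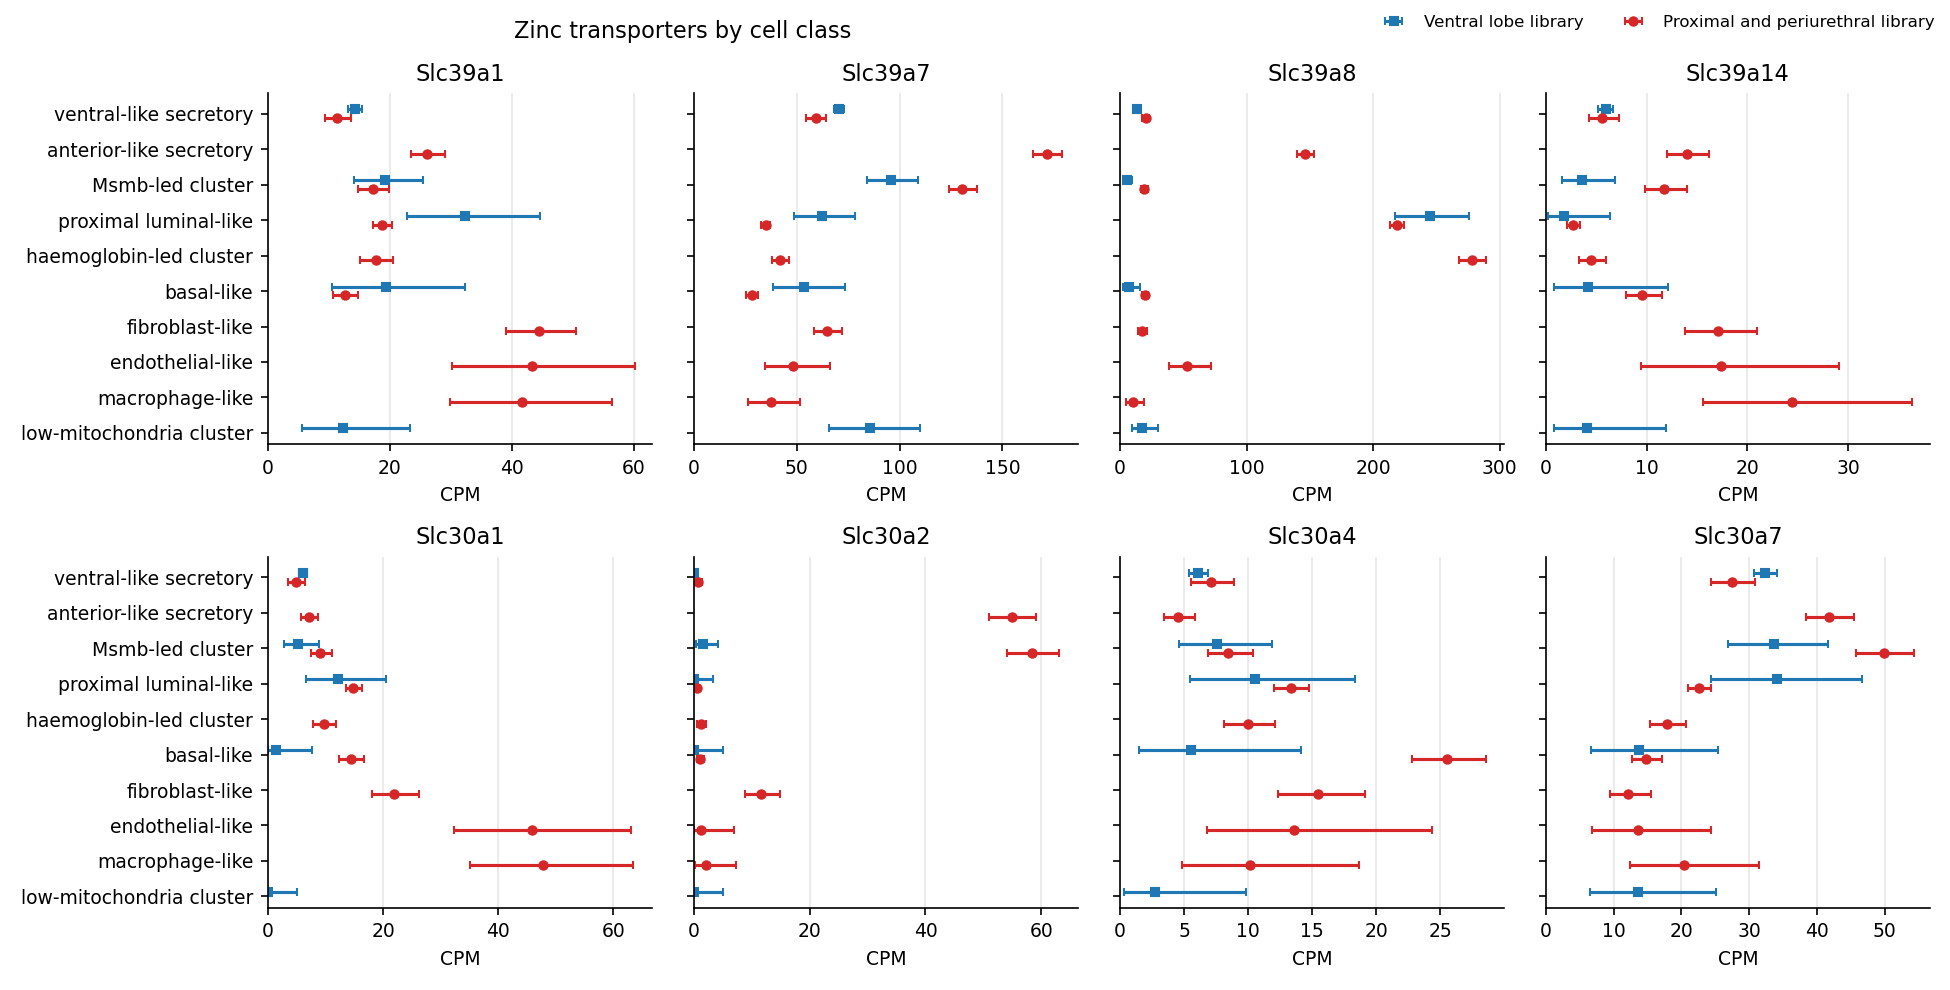
CPM of the 8 transporters by class, with exact 95% counting intervals, in the ventral (squares) and proximal (circles) library, each panel on its own linear axis from 0. Slc39a8 stands out in proximal luminal-like, haemoglobin-led and anterior-like cells, and Slc30a2 in anterior-like (55.0 CPM) and Msmb-led cells (58.4 CPM) of the proximal library.

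Among the exporters, Slc30a2 had the sharpest pattern. It encodes ZnT2, which loads zinc into secretory vesicles and is known for supplying zinc to milk. The proximal library held 714 UMIs of it in anterior-like cells (55.0 CPM, 51.0 to 59.1) and 642 in the Msmb-led cluster (58.4 CPM, 54.0 to 63.1), which overlapped. Fibroblast-like cells had 63 UMIs (11.6 CPM, 8.91 to 14.8). Proximal luminal-like cells had 15 UMIs (0.517 CPM, 0.289 to 0.853), basal-like cells 12 and ventral-like secretory cells 7 (0.689 CPM, 0.277 to 1.42). Anterior-like cells were 106-fold (64.0 to 191) and Msmb-led cells 113-fold (68.0 to 203) higher than proximal luminal-like cells. These folds rest on few proximal luminal-like UMIs: without the 1% of cells highest in the gene in each class, 2 of the 15 UMIs were left, and the log2 ratios went from 6.73 to 9.54 and from 6.82 to 9.65.

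Slc30a2 was near 0 in the ventral library. The 1547 ventral-like secretory cells had 0 UMIs of it, for which the exact upper limit is 0.0859 CPM, and the Msmb-led cluster had 4 UMIs (1.60 CPM, 0.436 to 4.09). The Msmb-led cluster of the proximal library was thus 36.5-fold (14.2 to 135) higher than the cluster led by the same gene in the ventral library. The ventral Msmb-led cluster carried ventral-like secretory markers at 113547 CPM in sum, against 21132 CPM in the proximal one, and its part in this difference was not tested. Among fibroblast-like clusters Slc30a2 stood at 3.68 CPM (1.59 to 7.24) in the Cxcl14-led, 17.5 (12.6 to 23.7) in the Eln-led and 15.2 (8.07 to 25.9) in the Sult1e1-led cluster. Fibroblast-like over proximal luminal-like cells, Slc30a2 was 22.4-fold (12.6 to 42.4) higher, and this log2 ratio went from 4.49 to 7.10 over the same 2 UMIs. The 4 anterior markers, none at 0, summed to 179 CPM in fibroblast-like and 141 CPM in proximal luminal-like cells, and their part in the result was not tested. Between the anterior-like clusters, Slc30a2 was 61.7 CPM (56.9 to 66.8) in the Ren1-led and 33.3 (27.2 to 40.4) in the Pate14-led one.

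Slc30a1 encodes ZnT1, the exporter at the plasma membrane and a known target of Mtf1. It did not follow the metallothioneins. Its highest levels were 47.7 CPM (35.1 to 63.5) in macrophage-like and 45.8 (32.2 to 63.1) in endothelial-like cells, then 21.9 (18.1 to 26.2) in fibroblast-like, 14.9 (13.5 to 16.3) in proximal luminal-like and 14.4 (12.4 to 16.7) in basal-like cells. Anterior-like cells, the highest in Mt1, held 7.16 CPM (5.78 to 8.77), which was 2.08-fold (1.66 to 2.63) below proximal luminal-like cells in CPM and under 2-fold on the scale without the 24 genes. Ventral-like secretory cells held 4.82 CPM (3.57 to 6.37), and 6.05 (5.34 to 6.84) in the ventral library.

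Slc30a4 encodes ZnT4, found on endosomes and vesicles, and was highest in basal-like cells of the proximal library at 25.5 CPM (22.8 to 28.5). Its Grp-led cluster held 29.97 CPM (25.02 to 35.6), and the Sbsn-led proximal luminal-like cluster 21.4 (17.5 to 25.9). Proximal luminal-like cells as a whole held 13.3 CPM (12.1 to 14.7) and anterior-like cells 4.54 (3.46 to 5.86), 2.94-fold (2.23 to 3.93) less. This log2 ratio of -1.55 went to -0.85, under 2-fold, with finer clusters (Leiden resolution 2). Slc30a7 encodes ZnT7, which moves zinc into the Golgi, and was highest in Msmb-led (49.9 CPM, 45.8 to 54.2) and anterior-like cells (41.8, 38.3 to 45.5), then in ventral-like secretory cells (27.5, 24.3 to 30.9). Proximal luminal-like cells held 22.6 CPM (20.9 to 24.4), basal-like cells 14.8 (12.7 to 17.1) and fibroblast-like cells 12.1 (9.39 to 15.4). Its ventral levels in ventral-like secretory (32.4 CPM), Msmb-led (33.6) and proximal luminal-like cells (34.2) overlapped, with basal-like cells at 13.8 CPM (6.61 to 25.3).

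Classes found in both libraries can be set side by side, since region and kit cannot be told apart no test was made. In ventral-like secretory cells 0 members were higher proximally by the 2-fold rule, against 11.1% of all genes, and 2 were lower, Mt1 (1674 against 3949 CPM, 2.36-fold) and Mt2 (427.7 against 2428 CPM, 5.68-fold, 5.51 to 5.85), against 2.19% of all genes. The other members with counts in both lay between 1.26-fold lower (Slc39a1) and 1.5-fold higher (Slc39a8), while the median of all genes counted was 0.178 higher on the log2 scale. These 2 directions turned with the setting, with log2 ratios from -0.5 to 0.45 for Slc39a1 and from -0.14 to 1.4 for Slc39a8. The Msmb-led clusters differed likewise, with Mt1 2.21-fold (2.17 to 2.26) and Mt2 4.49-fold (4.36 to 4.63) lower in the proximal library, and basal-like cells were 1.10-fold lower for Mt1 and 1.85-fold (1.73 to 1.98) for Mt2. The basal-like values rest on the Grp-led cluster of the proximal library: without it, Mt1 was 1.2-fold (1.13 to 1.27) higher there (1855 against 1548 CPM) and Mt2 1.26-fold (1.18 to 1.34) lower. In proximal luminal-like cells the difference was 7.13-fold for Mt1 and 16.3-fold for Mt2, and 2.43-fold and 2.52-fold without the 24 ventral cells with Sbp and Spink1. Slc39a8 was 1.12-fold (0.991 to 1.26) lower in proximal luminal-like cells of the proximal library, an interval that includes no difference, but 1.76-fold (1.54 to 1.99) lower without those 24 cells.

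Of a list of 19 other genes of zinc handling, between 10 and 14 had enough counts in the main comparisons. In anterior-like over proximal luminal-like cells 4 of 13 were at least 2-fold higher (Slc39a3, Slc39a11, Slc39a13 and Mt3), against 19.5% of all genes, and 2 lower (Slc39a4 and Slc39a12), against 24.6%. In the Msmb-led cluster 5 of 14 were higher (Slc39a11, Slc39a13, Slc30a5, Slc30a10 and Mt3), against 16.6%, and 2 lower (Slc39a4 and Slc39a6), against 26.0%. Fibroblast-like cells had 4 of 13 higher (Slc39a3, Slc39a6, Slc39a13 and Mt3), against 24.8%, and 2 lower (Slc39a4 and Slc39a12), against 16.3%. Basal-like cells had 0 of 12 higher, against 11.7%, and 2 lower (Slc39a4 and Slc39a12), against 12.4%. Several of these counts are near the share of all genes. Mt4, Slc39a2, Slc39a5, Slc30a3 and Slc30a8 had 0 to 5 UMIs in every class.

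Mt3, the metallothionein best known from the brain, had the same 3 high classes as Slc30a2. It stood at 94.1 CPM (88.9 to 99.6) in anterior-like, 26.8 (294 UMIs) in Msmb-led and 24.7 (20.7 to 29.2) in fibroblast-like cells, against 0.552 (0.315 to 0.896) in proximal luminal-like cells and 0 UMIs in ventral-like secretory cells of either library. Slc39a4 encodes ZIP4, the importer that takes up dietary zinc in the intestine, and it was highest in proximal luminal-like cells, with 35.6 CPM (33.5 to 37.9), or 92.8 (76.0 to 112) in the ventral library. The haemoglobin-led cluster held 21.2 CPM of it, anterior-like cells 17.7 (15.5 to 20.1), and ventral-like secretory cells 0.140 CPM (6 UMIs) in the ventral library and 0.787 CPM (8 UMIs) in the other. Slc30a10, an exporter of manganese, marked the Msmb-led clusters of both libraries at 24.0 (18.3 to 30.9) and 34.1 CPM (30.8 to 37.8), against 5.70 (3.88 to 8.10) in fibroblast-like cells and under 2 CPM in the other classes.

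For each member, the genes with the most similar pattern were read from log2(CPM + 10) over the 10 named classes with at least 50 cells, among 12690 genes, as a description with no test. Unnamed clusters were left out. Among them were the Msmb-led cluster of the proximal library, with Slc30a2 at 58.4 CPM, and the haemoglobin-led cluster, with Slc39a8 at 278.2 CPM. Mt1 was most like Mt2 among the members, and outside them most like Cks1b (Pearson r = 0.908) and Aldh7a1 (0.884), and Mt2 like Lrrc75b (0.925) and Higd1a (0.896). Slc39a8 was most like Plch1 (0.990) and Bex4 (0.973). Slc30a2 was most like Htra4 (0.994) and Mt3 (0.986), Slc39a7 like Slc35b1 (0.974) and Ube2m (0.968), and Slc30a7 like Ly6g6d and Slc7a4 (0.970 each). The highest values for Slc39a1, Slc39a14, Slc30a1 and Slc30a4 were with Akt2 (0.953), Lhfpl2 (0.939), Ttc39b (0.965) and Rnf217 (0.938). With 10 points that share 2 libraries, many genes reach such values.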

How the data were processed

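Dissociated cells were captured on the 10x Genomics Chromium, with a target of 5000 cells per library, per the labels' protocols. The authors deposited raw counts of UMIs for each gene in each barcode. The file headers name Cell Ranger 7.0.0, and the build is mm10 per the submitters' processing notes. Whether intronic reads were counted, and the annotation release, are not given in the sources used here.

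From the counts, barcodes with fewer than 500 genes or over 10% mitochondrial UMIs were removed (226 ventral, 635 proximal). Scrublet called 7 and 4 doublets, 0.193% of 5704 cells, and these were removed, but with so small a share the caller is taken not to have worked, and doublets may remain. Each library was clustered with scanpy 1.11.5 (Leiden, resolution 1, 2000 variable genes, 30 components, members and other zinc genes left out). A cluster took the name of the marker class with the highest mean excess over the other clusters, if at least 3 markers were in 25% of its cells and no other class had more markers among its 10 leading genes. No cluster was named from the dorsolateral list, so the planned comparison used the Msmb-led cluster. Classes are thus rebuilt here, and shares may differ from the study's for that reason.

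UMIs were summed per class. Intervals are Poisson for levels, conditional binomial for ratios and Clopper-Pearson for shares. All 10 members were described in each class with at least 50 cells. Counts past 2-fold needed 50 UMIs in the 2 classes together, and 18 alternatives were tried. The steps were tested on simulated data. The members, gene lists and tests were chosen with earlier results of these data known. Gene positions are from GENCODE M21, and promoters from RefSeq.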

Additional observations from a re-analysis of the deposited data

Results flagged for a closer look

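Mt2 lay on opposite sides of basal-like cells in the 2 libraries. Its log2 ratio of ventral-like secretory over basal-like cells was 0.83 (0.74 to 0.92) in the ventral library and -0.78 (-0.84 to -0.73) in the proximal library. The difference was not tested, since each library is 1 sample. On the scale without the 24 genes that held over 1% of a class, ventral-like secretory cells were higher in each, 3.47-fold in the ventral library and 1.24-fold in the other. The proximal direction on that scale rests on the basal-like cluster led by Grp: without that cluster, ventral-like secretory cells were 1.19-fold (1.15 to 1.24) lower in Mt2 than the other basal-like cells of the proximal library (1009 against 1206), and the directions were opposite again.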

How the results depend on the processing

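Ratios were recomputed under 13 alternatives. Counting the haemoglobin-led cluster as proximal luminal-like, leaving out the Grp-led basal cluster (also together with the scale without the most abundant genes), and using the Msmb-led clusters in place of a dorsolateral class were chosen after seeing the data. Of 993 values, 854 stayed within the counting interval of the reported ratio and 139 moved outside it, and 0 of the 514 values of the 40 ratios past 2-fold changed direction. The number of members past the fold in ventral-like secretory over basal-like cells of the ventral library was 3, but 8 on the scale without the most abundant genes and 1 at a 3-fold limit. For ventral-like secretory cells between the libraries it was 2, and 1 at a 3-fold limit. Of those 40 ratios, 33 stayed past 2-fold under all alternatives that gave a value and 7 did not. In anterior-like over proximal luminal-like cells, Slc30a1 fell under 2-fold in 4 alternatives (weakest log2 ratio -0.74) and Slc30a4 in 1 (-0.85). In ventral-like secretory over proximal luminal-like cells, Slc30a1 did so in 8 (-0.26) and Slc39a1 in 2 (-0.43) in the ventral library, and Slc30a1 in 1 (-0.52) and Slc39a14 in 5 (0.83) in the proximal one. Slc30a7 over ventral basal-like cells did so in 1 (0.98). The ventral Slc39a14 call had 0 UMIs in proximal luminal-like cells without those over 5% Sbp and Spink1, and no ratio. With at least 1000 genes and at most 5% mitochondrial UMIs, the ventral log2 ratios of ventral-like secretory over proximal luminal-like cells were 3.84 for Mt1 and 5.30 for Mt2, against 1.65 and 1.85. Depth limits the ventral basal-like and proximal luminal-like cells, where Slc39a14, Slc30a1 and Slc30a4 had at most 14 UMIs.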
